A study of Mus musculus with 12 samples.

Results

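A set of 10 genes of the circadian clock was examined across 12 bulk RNA sequencing libraries of mouse spinal cord. The 10 genes are the activators Arntl and Npas2, the repressors Cry1, Per1, Per2, Per3, Ciart, Nr1d1 and Nr1d2, and the output gene Dbp. They were picked by symbol out of 46078 genes in the deposited count table, and earlier results of these same libraries were known when they were picked. On GRCm38 (GENCODE M21) Arntl lies at chr7:113207465-113314126 on the plus strand and Dbp at chr7:45705088-45710203 on the plus strand; Npas2 and Per2 lie on chromosome 1, Ciart on 3, Per3 on 4, Cry1 on 10, Per1 and Nr1d1 on 11 and Nr1d2 on 14. Since they were picked with results known, the levels and differences of the 10 genes are given as a description, with no p-value for any of them. Where calls of the fit among them are counted, they stand beside the share of all genes called, and nothing is read from them. All 10 passed the filter on low counts, which left 16527 genes, and the smallest count of any of them in any library was 63, for Npas2.

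The study compared 4 groups of 3 libraries each. The first group was injured cord that received syngeneic mesenchymal stem cells (SCI+syngeneic MSC), the second injured cord that received allogeneic mesenchymal stem cells (SCI+allogeneic MSC), the third injured cord alone (SCI) and the fourth cord without injury (Non-injured). Mesenchymal stem cells are stromal cells that can be grown in culture and injected; syngeneic cells come from a genetically identical donor and allogeneic cells from a genetically different one. The host strain is labelled C57BL6/cJ in all 4 groups, and the labels name no transgene or deletion. The labels name no control injection for the SCI group. For time after injury, hour of day at collection, donor strain, sex and age, nothing is given in the sources used here. Nothing in the labels says that the 3 libraries of a group came from separate animals, so p-values measure only the spread between these samples, which may be technical.

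The clock is a feedback loop of transcription that runs in nearly every cell. Arntl (also called Bmal1) pairs with Clock or Npas2, binds E-box sequences and switches on the Per and Cry genes, Nr1d1, Nr1d2, Dbp and Ciart, whose products, Dbp apart, feed back to repress. Nr1d1 and Nr1d2 (the REV-ERB receptors) repress Arntl and Npas2 through ROR elements, so activators and REV-ERB targets are known to peak at another time of day than Dbp, Per3 and the REV-ERB genes. Dbp is a transcription factor that binds D-box sequences and carries the rhythm to other genes.

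The promoters of 5 of the 10 genes are shown, and each holds at least 1 of the elements through which the loop is known to run. The window of Nr1d2, which holds a match as well, is not shown. Windows of 300 bases, from 250 before to 50 after an annotated start, came from RefSeq on GRCm38.p6, and 9 of the 10 genes had at least 1. Searched were 3 motifs on both strands, namely the E-box CACGTG, the D-box TTATGTAA and the core of the ROR element AGGTCA, none of which overlapped another in the windows shown. Arntl and Per1 have a further window each, which holds no match and is not shown. Capitals mark the matches, and each window is written 5′ to 3′ on the strand of its gene. The order is Ciart (chr3:95882179-95882478, minus strand), Per1 (chr11:69098699-69098998, plus strand), Cry1 (chr10:85185005-85185304, minus strand), Per3 (chr4:151044616-151044915, minus strand) and Arntl (chr7:113207261-113207560, plus strand).
Ciart: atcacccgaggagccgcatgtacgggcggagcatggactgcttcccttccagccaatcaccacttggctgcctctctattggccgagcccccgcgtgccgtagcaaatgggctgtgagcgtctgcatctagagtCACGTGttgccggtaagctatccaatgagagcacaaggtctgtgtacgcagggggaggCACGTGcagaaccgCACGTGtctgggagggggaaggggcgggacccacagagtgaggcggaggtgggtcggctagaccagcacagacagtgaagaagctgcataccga
Per1: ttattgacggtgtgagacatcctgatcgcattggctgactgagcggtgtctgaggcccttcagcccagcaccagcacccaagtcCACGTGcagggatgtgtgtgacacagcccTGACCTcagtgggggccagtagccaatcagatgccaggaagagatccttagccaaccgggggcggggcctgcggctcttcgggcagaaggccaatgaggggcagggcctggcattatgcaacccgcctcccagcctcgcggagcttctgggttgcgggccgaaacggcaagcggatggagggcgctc
Cry1: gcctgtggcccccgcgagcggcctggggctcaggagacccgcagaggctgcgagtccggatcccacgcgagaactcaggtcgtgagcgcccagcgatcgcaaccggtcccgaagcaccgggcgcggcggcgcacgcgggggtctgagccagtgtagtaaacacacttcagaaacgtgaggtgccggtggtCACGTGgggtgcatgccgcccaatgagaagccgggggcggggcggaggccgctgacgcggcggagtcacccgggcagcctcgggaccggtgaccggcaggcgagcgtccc
Per3: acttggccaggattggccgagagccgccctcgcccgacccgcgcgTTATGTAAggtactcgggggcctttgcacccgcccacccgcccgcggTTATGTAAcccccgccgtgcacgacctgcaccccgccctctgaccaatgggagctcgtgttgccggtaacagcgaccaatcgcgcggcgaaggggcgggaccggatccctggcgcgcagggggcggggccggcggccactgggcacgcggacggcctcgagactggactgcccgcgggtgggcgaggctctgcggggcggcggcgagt
Arntl: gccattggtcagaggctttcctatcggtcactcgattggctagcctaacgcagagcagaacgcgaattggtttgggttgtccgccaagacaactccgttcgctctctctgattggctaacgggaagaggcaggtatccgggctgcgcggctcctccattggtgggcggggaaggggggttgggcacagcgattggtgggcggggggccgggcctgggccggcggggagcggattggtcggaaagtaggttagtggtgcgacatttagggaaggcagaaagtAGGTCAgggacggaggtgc

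Ciart carried 3 E-boxes, which begin 116, 58 and 44 bases before its start. At least 3 E-boxes stood in 29 of 32851 RefSeq promoter windows (0.0883%), while 7.15% held at least 1. Per1 and Cry1 each held 1 E-box, 166 and 60 bases before the start. Per3 held 2 D-boxes, 205 and 158 bases before its start, and 0.0213% of all windows held as many; at least 1 stood in 0.938%. The ROR core is a short motif found in 16.3% of all windows; it stood in Arntl 31 bases after this start, in Per1 as TGACCT on the other strand, and in Nr1d2. None of the 3 motifs was found in the windows of Dbp, Npas2 and Nr1d1. A match is a string of letters in the window, and binding was not measured.

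Library totals ran between 8705942 and 26151928 counts, and levels are given as CPM, counts relative to library size, with sizes adjusted by the trimmed mean of M values (TMM). Markers of neurons, oligodendrocytes and astrocytes, 6 of each, were detected in all 4 groups, as the tissue label says. Summed markers of skeletal muscle stayed between 1.76 and 10.2 CPM. One Non-injured library, replicate 3, had 10.9% of its counts in mitochondrial genes, against 5.0% to 8.80% in the other 11. Sample numbers in the labels run between 191 and 193 for SCI+syngeneic MSC, 204 and 210 for SCI+allogeneic MSC, 100 and 126 for SCI, and 119 and 121 for Non-injured. Transplanted cords were thus numbered apart from both other groups, and any difference in when or how they were collected cannot be told apart from transplantation.

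Both activators were low in transplanted cord and high in cord with injury alone. Arntl, the activator without which the loop does not run, had 8.92, 8.66 and 10.2 CPM in SCI+syngeneic MSC cords, 10.6, 9.59 and 10.7 CPM in SCI+allogeneic MSC cords, 22.8, 21.5 and 20.4 CPM in SCI cords, and 17.9, 15.5 and 14.4 CPM in Non-injured cords. All 6 transplanted libraries lay below all 6 others, and SCI lay above Non-injured in every library. The log2 fold change was -1.22 (SE 0.12) for SCI+syngeneic MSC over SCI and -1.06 (SE 0.12) for SCI+allogeneic MSC over SCI. Against Non-injured cord the value was -0.79 (SE 0.12) for SCI+syngeneic MSC, -0.62 (SE 0.12) for SCI+allogeneic MSC and 0.44 (SE 0.12) for SCI.

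Npas2, the partner that can stand in for Clock in the forebrain and other tissues, had 7.43, 5.23 and 8.48 CPM in SCI+syngeneic MSC cords, 8.76, 7.11 and 7.52 CPM in SCI+allogeneic MSC cords, 17.7, 19.3 and 17.2 CPM in SCI cords, and 9.97, 8.18 and 6.15 CPM in Non-injured cords. Only the SCI libraries stood apart, above the 9 others, and the other 3 groups overlapped. Over SCI, the log2 fold change was -1.36 (SE 0.20) with syngeneic and -1.21 (SE 0.20) with allogeneic cells, and for SCI over Non-injured it was 1.15 (SE 0.20). Npas2 in transplanted cord lay close to Non-injured cord, where Arntl lay below it, with a log2 fold change of -0.21 (SE 0.20) for SCI+syngeneic MSC and -0.06 (SE 0.21) for SCI+allogeneic MSC over Non-injured.

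**Figure D1:**
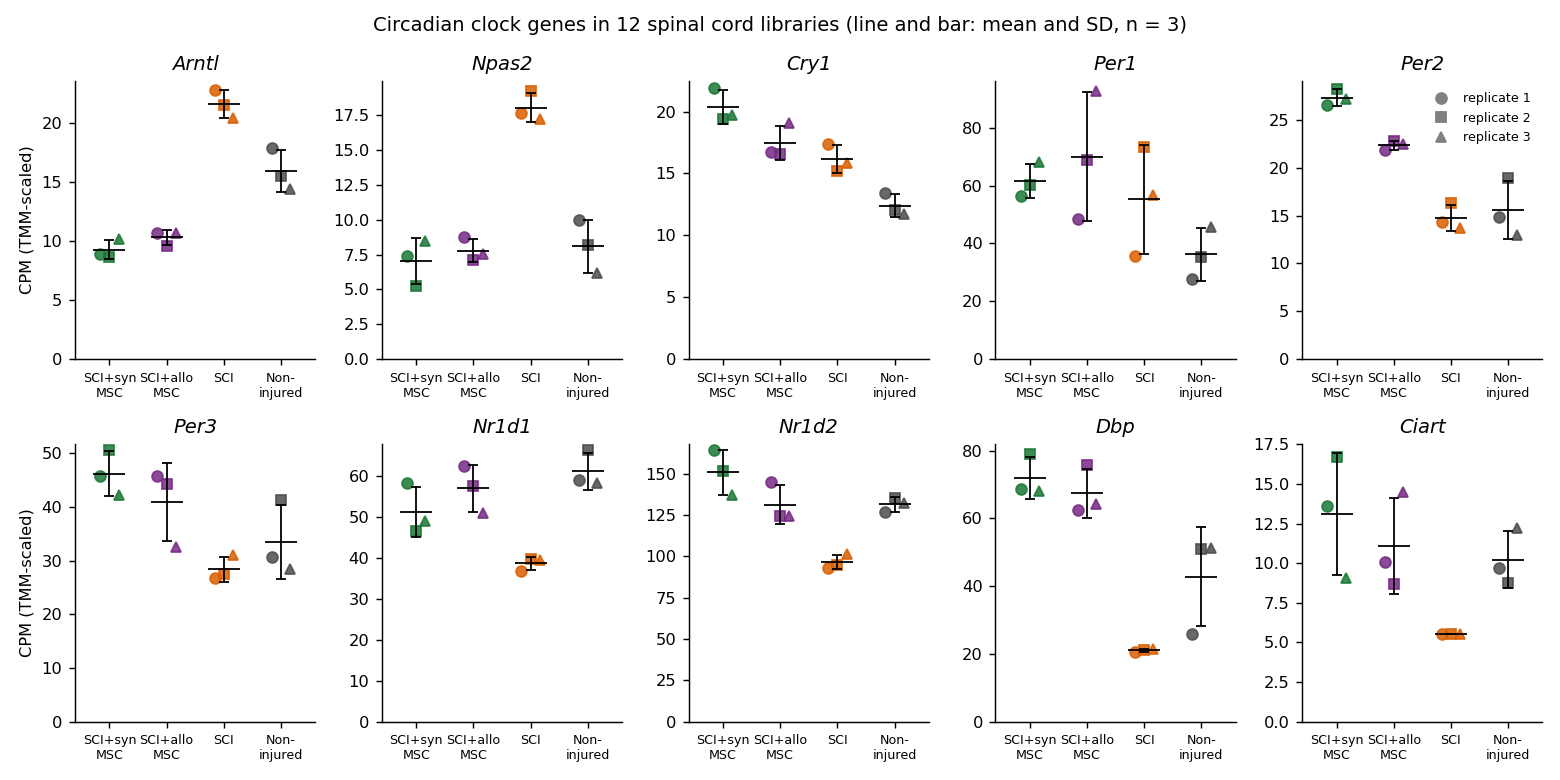
Levels of the 10 clock genes in CPM (y axis, from 0, one panel per gene) in each library, by group on the x axis; symbols mark replicates, and the black line and bar give mean and SD (n = 3). Arntl and Npas2 are highest in SCI, where Dbp and Ciart are lowest, with Dbp at 20.6 to 21.4 CPM.

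Dbp showed the reverse order and the widest span of group means of the 10 genes, 3.42-fold between the highest and the lowest. It had 68.7, 79.1 and 68.2 CPM in SCI+syngeneic MSC cords, 62.4, 75.6 and 64.2 CPM in SCI+allogeneic MSC cords, 20.6, 21.2 and 21.4 CPM in SCI cords, and 26.0, 51.0 and 51.4 CPM in Non-injured cords. Both transplanted groups lay above the other groups in every library and overlapped each other, and SCI was lowest. Over SCI, the log2 fold change was 1.77 (SE 0.21) with syngeneic and 1.68 (SE 0.21) with allogeneic cells. For SCI over Non-injured it was -1.02 (SE 0.21), with 1 Non-injured library, replicate 1, at 26.0 CPM and close to SCI.

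Ciart (also called Chrono), a repressor of the Arntl complex, had 13.6, 16.7 and 9.06 CPM in SCI+syngeneic MSC cords, 10.1, 8.69 and 14.5 CPM in SCI+allogeneic MSC cords, 5.51, 5.55 and 5.56 CPM in SCI cords, and 9.70, 8.74 and 12.2 CPM in Non-injured cords. SCI lay below all 9 other libraries, whose 3 groups overlapped. Ciart differed from SCI by a log2 fold change of 1.25 (SE 0.24) with syngeneic and 1.01 (SE 0.24) with allogeneic cells, and -0.88 (SE 0.24) for SCI over Non-injured. The coefficient of variation was 29.3% in SCI+syngeneic MSC, 27.4% in SCI+allogeneic MSC and 0.391% in SCI, so the 3 SCI libraries were nearly equal. Ciart stood at only 5.51 to 5.56 CPM in SCI, and its smallest count in any library was 77, outside SCI. At such low levels the 0.391% is not read as a true spread. Over all genes tested the SD of log2 CPM was also smallest in SCI. Its median was 0.119 there, 0.212 in SCI+syngeneic MSC, 0.232 in SCI+allogeneic MSC and 0.218 in Non-injured cords.

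The ratio of Dbp to Arntl counts within a library does not depend on how libraries are scaled. It was 7.71, 9.13 and 6.72 in SCI+syngeneic MSC cords, 5.87, 7.88 and 6.03 in SCI+allogeneic MSC cords, 0.903, 0.990 and 1.05 in SCI cords, and 1.46, 3.29 and 3.58 in Non-injured cords. Counts are not corrected for gene length, so the ratio is read between libraries and not as a ratio of molecules. On the log2 scale the means were 2.96 ± 0.22 in SCI+syngeneic MSC, 2.71 ± 0.24 in SCI+allogeneic MSC, -0.03 ± 0.11 in SCI and 1.37 ± 0.72 in Non-injured (SD, n = 3 each). The transplanted libraries and the SCI libraries thus lay on opposite sides of Non-injured cord, whose replicate 1 was nearest to SCI.

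**Figure D2:**
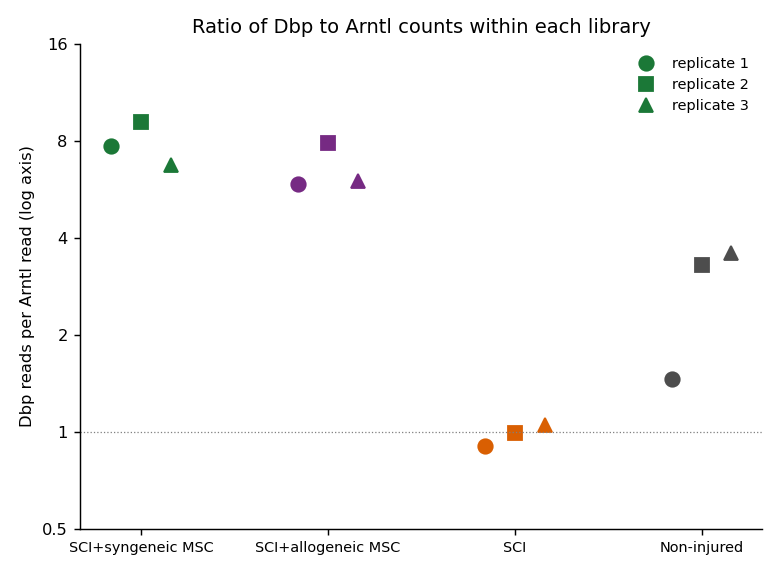
Dbp reads per Arntl read (log axis) in each of the 12 libraries, by group; symbols mark replicates and the dotted line marks a ratio of 1. The 6 transplanted libraries range over 5.87 to 9.13, the SCI libraries over 0.903 to 1.05 and the Non-injured libraries over 1.46 to 3.58.

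The 3 Period genes, which code for repressors that enter the nucleus with the Cry proteins, did not behave alike. Per2 had 26.6, 28.3 and 27.2 CPM in SCI+syngeneic MSC cords, 21.9, 22.8 and 22.5 CPM in SCI+allogeneic MSC cords, 14.3, 16.3 and 13.7 CPM in SCI cords, and 14.9, 18.9 and 12.97 CPM in Non-injured cords. Both transplanted groups lay above the other groups, the syngeneic above the allogeneic, and SCI overlapped Non-injured. Over SCI, Per2 had a log2 fold change of 0.89 (SE 0.13) with syngeneic and 0.60 (SE 0.13) with allogeneic cells, and of -0.07 (SE 0.13) for SCI over Non-injured.

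Per3 had 45.8, 50.6 and 42.2 CPM in SCI+syngeneic MSC cords, 45.9, 44.2 and 32.6 CPM in SCI+allogeneic MSC cords, 26.7, 27.5 and 31.1 CPM in SCI cords, and 30.7, 41.4 and 28.5 CPM in Non-injured cords. Transplanted cords lay above SCI, but replicate 3 of SCI+allogeneic MSC did so by little, and both SCI and SCI+allogeneic MSC overlapped Non-injured. Per3 differed from SCI by a log2 fold change of 0.70 (SE 0.16) with syngeneic and 0.52 (SE 0.16) with allogeneic cells, and -0.24 (SE 0.16) for SCI over Non-injured.

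Per1, which besides the clock also responds acutely to glucocorticoids and to neuronal activity, had 56.5, 60.3 and 68.1 CPM in SCI+syngeneic MSC cords, 48.3, 68.8 and 92.9 CPM in SCI+allogeneic MSC cords, 35.7, 73.3 and 56.8 CPM in SCI cords, and 27.6, 35.2 and 45.8 CPM in Non-injured cords. Both transplanted groups overlapped SCI and lay above Non-injured. Per1 had a log2 fold change over SCI of 0.16 (SE 0.28) with syngeneic and 0.34 (SE 0.28) with allogeneic cells, and for Per1 the first was -0.08 without SCI replicate 1. Its coefficient of variation reached 31.9% in SCI+allogeneic MSC and 34.1% in SCI, against 2.14% and 9.14% for Per2 in the same groups. The library with the highest Per1, SCI+allogeneic MSC replicate 3, also had the highest Fkbp5 and Sgk1, glucocorticoid-induced genes, of the 12: Fkbp5 stood at 81.2 CPM there and Sgk1 at 464 CPM. Fkbp5 did not pass 42.4 CPM in any other library, while Sgk1 reached 320 CPM in Non-injured replicate 3, where Per1 stood at 45.8 CPM. In SCI replicate 2, with the second highest Per1, Fkbp5 stood at 28.9 CPM, and the part of glucocorticoid in Per1 was not tested.

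Cry1, a repressor that peaks late in the cycle, had 21.9, 19.4 and 19.7 CPM in SCI+syngeneic MSC cords, 16.7, 16.6 and 19.1 CPM in SCI+allogeneic MSC cords, 17.4, 15.2 and 15.9 CPM in SCI cords, and 13.5, 12.1 and 11.7 CPM in Non-injured cords. All 3 injured groups lay above Non-injured; the allogeneic group overlapped SCI and the syngeneic group lay above both. Cry1 had a log2 fold change of 0.33 (SE 0.11) for SCI+syngeneic MSC over SCI, 0.11 (SE 0.11) for SCI+allogeneic MSC over SCI and 0.38 (SE 0.11) for SCI over Non-injured. Cry1 thus did not follow Arntl and Npas2 in the transplanted groups.

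The REV-ERB genes were lowest in SCI. Nr1d1 had 58.3, 46.6 and 49.0 CPM in SCI+syngeneic MSC cords, 62.6, 57.7 and 51.0 CPM in SCI+allogeneic MSC cords, 36.8, 39.9 and 39.5 CPM in SCI cords, and 59.0, 66.5 and 58.3 CPM in Non-injured cords. Nr1d2 had 164, 151 and 137 CPM in SCI+syngeneic MSC cords, 145, 125 and 125 CPM in SCI+allogeneic MSC cords, 93.2, 94.9 and 101 CPM in SCI cords, and 127, 136 and 132 CPM in Non-injured cords. For both genes the 3 SCI libraries lay below the 9 others. The log2 fold change of Nr1d1 over SCI was 0.41 (SE 0.11) with syngeneic and 0.56 (SE 0.11) with allogeneic cells, and -0.66 (SE 0.11) for SCI over Non-injured. That of Nr1d2 was 0.64 (SE 0.10), 0.45 (SE 0.10) and -0.45 (SE 0.10) in the same comparisons. Taken over both transplanted groups, the 2 genes overlapped Non-injured cord, where Dbp and Per2 were above it. In SCI+syngeneic MSC they differed in direction. Nr1d1 lay below Non-injured cord but for replicate 1, at 58.35 CPM against a lowest Non-injured value of 58.30 CPM. Nr1d2 lay above every Non-injured library, by little. Nr1d1 differed from Non-injured by -0.26 (SE 0.11) in SCI+syngeneic MSC and -0.10 (SE 0.11) in SCI+allogeneic MSC on the log2 scale, and Nr1d2 differed from Non-injured by a log2 fold change of 0.20 (SE 0.10) in SCI+syngeneic MSC and -0.00081 (SE 0.10) in SCI+allogeneic MSC.

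Dbp and Nr1d1 share exon positions with genes on the other strand, Sphk2 and Thra, and the strand setting of the counting is not given in the sources used here. Sphk2, a sphingosine kinase, stood at 26.4 ± 1.70 CPM in SCI+syngeneic MSC, 27.6 ± 2.70 CPM in SCI+allogeneic MSC, 29.4 ± 2.67 CPM in SCI and 27.2 ± 0.284 CPM in Non-injured cords (SD, n = 3 each). Thra, a thyroid hormone receptor, stood at 267 ± 12.6 CPM, 271 ± 45.7 CPM, 262 ± 16.1 CPM and 259 ± 22.1 CPM in the same order. The log2 fold change of Sphk2 over SCI was -0.16 with syngeneic and -0.09 with allogeneic cells, and that of Thra was 0.03 and 0.05. Arntl overlaps Gm45355 on the other strand, for which no value was analysed here.

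Set together, 9 of the 10 genes had SCI+syngeneic MSC libraries that did not overlap SCI, 7 higher and 2 lower, and Per1 overlapped. Over all genes tested, 12.2% did not overlap in the higher direction and 11.5% in the lower. For SCI+allogeneic MSC and SCI, 6 genes were higher and 2 lower without overlap, where 4.20% and 3.29% of all genes were. With all 6 transplanted libraries against the 3 of SCI, 6 genes were higher (Dbp, Ciart, Per2, Per3, Nr1d1 and Nr1d2) and 2 lower (Arntl and Npas2), and 1.31% and 1.59% of all genes were. The comparisons share the SCI libraries, so they are not separate evidence, and the 10 genes were picked with these contrasts known.

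Past the threshold of an adjusted p below 0.05 by edgeR's quasi-likelihood test were 2 of the 10 genes (Dbp and Arntl) for SCI+syngeneic MSC over SCI, where 0.0363% of all genes were called, and 3 (Dbp, Arntl and Npas2) for SCI+allogeneic MSC over SCI, where 0.188% were. For SCI over Non-injured 7 were called, in a comparison that called 25.8% of all genes: 3 higher (Arntl, Npas2 and Cry1), where 16.6% of all genes were, and 4 lower (Dbp, Ciart, Nr1d1 and Nr1d2), where 9.26% were. The libraries of these 7 did not overlap, and neither did those of 26.3% of all genes in the higher and 21.2% in the lower direction. Over the 10 genes the median size of log2 fold change was 0.79 for SCI+syngeneic MSC over SCI, against 0.18 over all genes tested, and 0.58 for SCI+allogeneic MSC over SCI, against 0.12 over all genes. For SCI over Non-injured it was 0.53, against 0.30 over all genes. The 10 genes were picked with these contrasts known, so larger medians could follow from the picking alone, and nothing is read from them. The calls over SCI depended on single libraries. With any 1 of the 3 SCI libraries left out, 0 of the 10 genes were called in either comparison. Without SCI+syngeneic MSC replicate 1 or replicate 2 the count for the syngeneic comparison was 0 as well, and without its replicate 3 it was 7; without Non-injured replicate 3 it was 4.

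**Figure D3:**
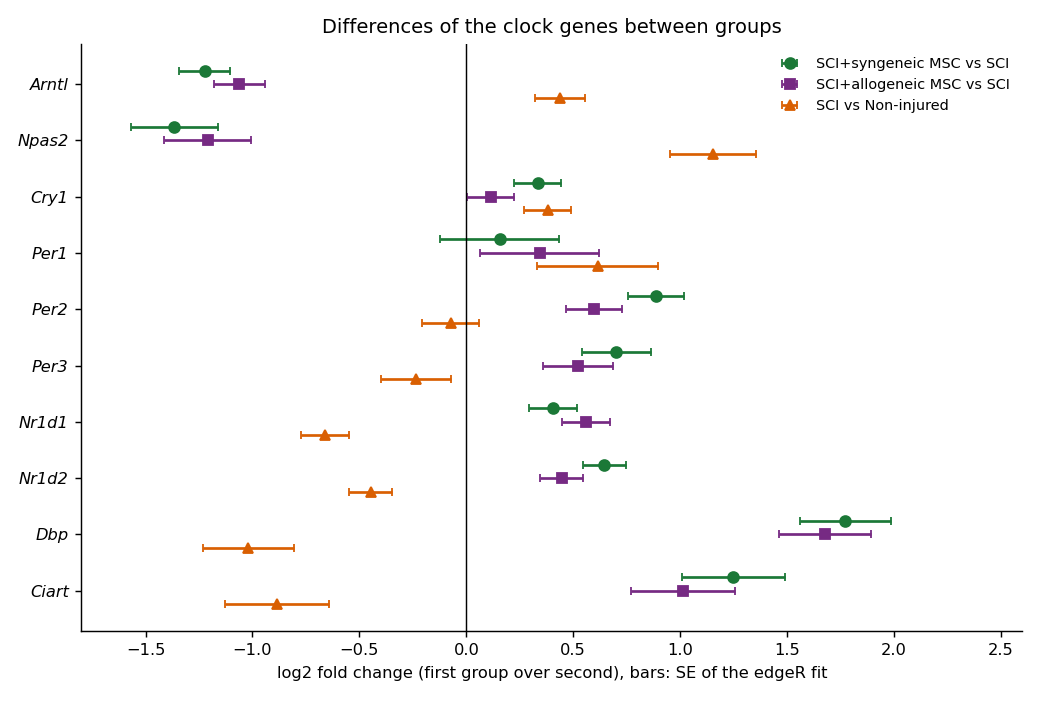
Log2 fold change (x axis, first group over second) of each clock gene in 3 comparisons, with bars for the SE of the edgeR fit. Arntl and Npas2 lie left of 0 in both transplanted groups over SCI and right of 0 for SCI over Non-injured; Dbp, Ciart, Nr1d1 and Nr1d2 do the opposite.

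The transplanted groups lay close to each other for these genes. For SCI+syngeneic MSC over SCI+allogeneic MSC the log2 fold changes lay between -0.19 for Per1 and 0.29 for Per2. Their median size was 0.18, against 0.19 over all genes tested. Cry1 and Per2 were higher in every syngeneic than in every allogeneic library, where 5.19% of all genes were, and the other 8 overlapped. None of the 10 was called, where 101 of all genes tested (0.611%) were. The SE of these 10 differences ran between 0.10 and 0.28.

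Relative to Non-injured cord the transplanted groups were higher for some of these genes and lower for 1. All 6 transplanted libraries were above the 3 Non-injured libraries for Dbp, Cry1, Per1 and Per2, where 11.7% of all genes were, and below them for Arntl, where 4.97% were. Npas2, Per3, Nr1d1, Nr1d2 and Ciart overlapped Non-injured over the 6 transplanted libraries. In SCI+syngeneic MSC alone Per3 and Nr1d2 were above every Non-injured library as well, so that 6 genes were higher and 1 lower without overlap, where 13.7% and 7.18% of all genes were. Both did so by little. The lowest SCI+syngeneic MSC and highest Non-injured libraries had 42.2 and 41.4 CPM for Per3 and 136.9 and 135.5 CPM for Nr1d2. For SCI+syngeneic MSC over Non-injured 3 genes were called (Arntl, Cry1 and Per2) among 5.34% of all genes, and for SCI+allogeneic MSC over Non-injured 5 (Arntl, Cry1, Per1, Per2 and Dbp) among 24.9%. Dbp had a log2 fold change of 0.75 (SE 0.21) for SCI+syngeneic MSC and 0.66 (SE 0.21) for SCI+allogeneic MSC over Non-injured, and without Non-injured replicate 1 these were 0.49 and 0.39.

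Non-injured cord was itself uneven for some of these genes. The coefficient of variation of Dbp was 8.56% in SCI+syngeneic MSC, 10.6% in SCI+allogeneic MSC, 2.01% in SCI and 34.0% in Non-injured cords. Arntl, Per2, Per3 and, by little, Npas2 also varied most in Non-injured cord. Cry1, Per1, Nr1d1, Nr1d2 and Ciart did not, and Nr1d2 varied least there, with a coefficient of 3.38%. Replicate 1 had the lowest Dbp and the highest Arntl and Npas2 of the 3, and replicate 3, the one with the high mitochondrial share, had the lowest Arntl, Npas2 and Cry1. The hour at which each cord was taken is not given, and its part in these levels was not tested.

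Marker lists of 10 cell types were set beside the clock genes, and by edgeR 0 of the markers tested were called for either transplanted group over SCI. Of all genes 0.0363% were called over SCI in SCI+syngeneic MSC, 0.188% in SCI+allogeneic MSC, and 0.611% between the transplanted groups. All 6 markers of microglia and macrophages rose over Non-injured cord in each of the 3 injured groups by edgeR, and 0 of 6 were called between injured groups. All 6 fibroblast markers rose over Non-injured cord in SCI+allogeneic MSC and in SCI, and 0 of 6 were called in SCI+syngeneic MSC. Over all genes 5.34% were called either way over Non-injured cord in SCI+syngeneic MSC, 24.9% in SCI+allogeneic MSC and 25.8% in SCI. The 6 markers of microglia and macrophages summed to 515, 382 and 873 CPM in SCI+syngeneic MSC cords, 845, 1144 and 1064 CPM in SCI+allogeneic MSC cords, 848, 1026 and 890 CPM in SCI cords, and 156, 141 and 187 CPM in Non-injured cords. The libraries of SCI+allogeneic MSC overlapped those of SCI, as did replicate 3 of SCI+syngeneic MSC. The 6 fibroblast markers summed to 189, 232 and 1002 CPM in SCI+syngeneic MSC, 441, 1492 and 1282 CPM in SCI+allogeneic MSC, 1576, 1174 and 1057 CPM in SCI and 101, 217 and 219 CPM in Non-injured cords. The syngeneic libraries lay below SCI for these. The sums of the 6 endothelial markers, which lay apart from SCI in both transplanted groups, were 217 to 239 CPM in SCI+syngeneic MSC and 252 to 276 CPM in SCI+allogeneic MSC, all below the 289 to 358 CPM of SCI, with 265 to 375 CPM in Non-injured cords. The 6 neuron markers summed to 6975 to 9734 CPM in SCI+syngeneic MSC, 5713 to 6800 CPM in SCI+allogeneic MSC, 5336 to 6788 CPM in SCI and 9922 to 11772 CPM in Non-injured cords, so the syngeneic libraries lay above SCI. The 6 red blood cell markers summed to 85.7 to 224 CPM in SCI+syngeneic MSC, 205 to 471 CPM in SCI+allogeneic MSC, 288 to 357 CPM in SCI and 218 to 301 CPM in Non-injured cords, with the syngeneic libraries below SCI. The sums of the other 5 lists overlapped SCI in both transplanted groups. No marker of the 5 lists given here by value was at 0 throughout a group, and the part of cell makeup in the levels of the clock genes was not tested. In bulk tissue fewer cells of a type and less RNA per cell cannot be told apart.

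**Figure D4:**
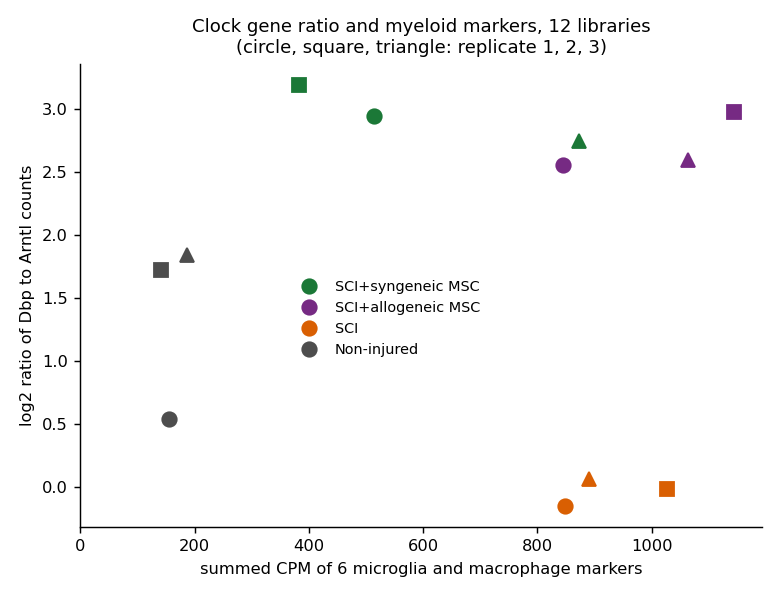
Log2 ratio of Dbp to Arntl counts (y axis) against the summed CPM of 6 microglia and macrophage markers (x axis, from 0), 1 point per library, coloured by group with replicates by symbol. On the x axis SCI+allogeneic MSC spans 845 to 1144 CPM and SCI 848 to 1026 CPM; the ratios of both groups are those given above.

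The remaining core clock genes were followed with a list of 20 genes, all of which passed the filter. The list was written from the known pathway, but with earlier results of these libraries known, so it is not independent evidence. They hold Clock, Cry2, the ROR receptors, the PAR bZIP factors Tef and Hlf, the D-box repressor Nfil3, the E-box repressors Bhlhe40 and Bhlhe41, kinases and ubiquitin ligases of the loop, and cofactors. None of the 20 was called for SCI+syngeneic MSC or SCI+allogeneic MSC over SCI by edgeR, where 0.0363% and 0.188% of all genes were. DESeq2 called 1 of the 20 (Tef) in the first comparison and 0 in the second. Their median log2 fold change was -0.04 for SCI+syngeneic MSC and -0.05 for SCI+allogeneic MSC over SCI, against 0.00 over all genes in both. Over all genes 2232 and 486 had an unadjusted p below 0.05 in those comparisons.

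Tef, which shares the D-box with Dbp, stood at 212 ± 19.8 CPM in SCI+syngeneic MSC, 188 ± 19.5 CPM in SCI+allogeneic MSC and 147 ± 4.14 CPM in SCI cords (SD, n = 3 each). Its log2 fold change was 0.54 (SE 0.12, adjusted p = 0.216 by edgeR) with syngeneic and 0.36 (SE 0.12, adjusted p = 0.9999) with allogeneic cells, and every transplanted library was above every SCI library. By DESeq2 the syngeneic difference of Tef had an adjusted p of 0.00297, and without SCI+syngeneic MSC replicate 3 edgeR gave 0.0384. Nfil3, which is repressed by REV-ERB and competes with Dbp at D-boxes, stood at 7.74 ± 1.53 CPM in SCI+syngeneic MSC, 10.6 ± 4.15 CPM in SCI+allogeneic MSC and 14.1 ± 0.919 CPM in SCI cords. Its log2 fold change of -0.87 (SE 0.24) with syngeneic cells did not pass the test (adjusted p = 0.296), and without replicate 3 of that group it did, at -1.06 with an adjusted p of 0.0429. Clock itself, the partner of Arntl, stood at 90.0 ± 17.5 CPM in SCI+syngeneic MSC, 84.7 ± 23.3 CPM in SCI+allogeneic MSC and 103 ± 8.08 CPM in SCI cords, with overlapping libraries.

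**Figure D5:**
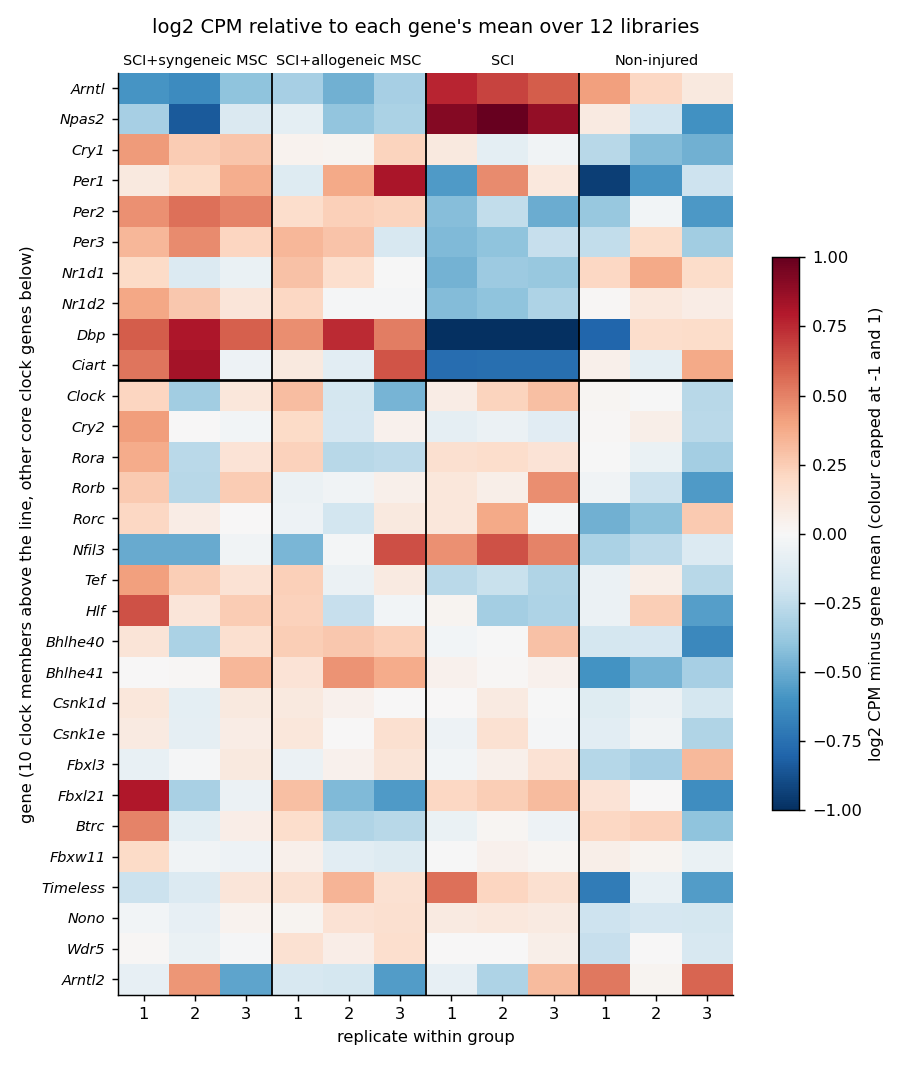
Log2 CPM minus the mean of each gene over the 12 libraries (colour, capped at -1 and 1) for the 10 clock genes above the line and the 20 other core clock genes below it; columns are replicates within groups. Contrast between groups is strongest in Dbp, Arntl, Npas2 and Ciart, and Tef and Nfil3 show a fainter contrast between SCI+syngeneic MSC and SCI.

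For SCI over Non-injured 4 of these 20 genes rose and 0 fell, where 16.6% of all genes were called higher and 9.26% lower. Nfil3 had a log2 fold change of 0.77 (SE 0.24, adjusted p = 0.0340 by edgeR), Bhlhe41 by 0.49 (SE 0.12, adjusted p = 0.0119), Timeless by 0.74 (SE 0.20, adjusted p = 0.0172) and Nono by 0.27 (SE 0.08, adjusted p = 0.0264). All 3 SCI libraries were above all 3 Non-injured ones for each of the 4 genes. Bhlhe41 (also called Dec2) also rose in SCI+syngeneic MSC over Non-injured, by 0.59 (SE 0.12, adjusted p = 0.0155), as the only one of the 20, where 5.34% of all genes were called either way. In SCI+allogeneic MSC over Non-injured 4 rose, where 24.9% of all genes were called either way. They were Bhlhe41 by 0.78 (SE 0.12, adjusted p = 0.000806), Bhlhe40 by 0.56 (SE 0.16, adjusted p = 0.0232), Timeless by 0.64 (SE 0.20, adjusted p = 0.0349) and Nono by 0.30 (SE 0.08, adjusted p = 0.0191). Timeless is best known in mammals for its part in DNA replication. The call of Bhlhe41 in SCI+allogeneic MSC was kept with each of the 12 libraries left out in turn. Without Non-injured replicate 1 the count for SCI over Non-injured was 0 of 20, since Nfil3, Bhlhe41, Timeless and Nono all missed the threshold there. Nfil3 and Nono in SCI were also lost without any 1 of the other 5 libraries compared, and Bhlhe41 in SCI+syngeneic MSC without its replicate 3 or Non-injured replicate 1 or 2. Bhlhe40, Timeless and Nono in SCI+allogeneic MSC were each lost without replicate 2 or replicate 3 of that group, with adjusted p of at most 0.132.

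Genes that are driven by the clock in many tissues gave no call over SCI. Of 14 such output genes 0 passed the test in either transplanted group by edgeR. Of all genes 0.0363% did so in SCI+syngeneic MSC and 0.188% in SCI+allogeneic MSC, so little is read from the 0. The median log2 fold change of the 14 genes was 0.10 for SCI+syngeneic MSC and 0.12 for SCI+allogeneic MSC, against 0.00 over all genes in both. Over Non-injured cord 4 rose in SCI+syngeneic MSC (Usp2, Tspan4, Fmo2 and Por) and 0 fell; 6 rose (the same 4, Pdk4 and Lonrf3) and Ypel2 fell in SCI+allogeneic MSC; 4 rose and 1 fell in SCI. Over all genes 5.34% were called either way in the first of these comparisons, 24.9% in the second and 25.8% in the third. With each of the 12 libraries left out in turn Usp2 in all 3 groups and Fmo2 in both transplanted groups kept their calls. Tspan4 and Por in SCI+syngeneic MSC, Ypel2 in SCI+allogeneic MSC, and Pdk4 and Tsc22d3 in SCI lost theirs without 1 library or another, with adjusted p of at most 0.180. Usp2, a ubiquitin protease with strong rhythms in liver and other organs, had 31.5 ± 5.44 CPM in SCI+syngeneic MSC, 34.7 ± 3.86 CPM in SCI+allogeneic MSC, 28.4 ± 3.86 CPM in SCI and 17.7 ± 1.21 CPM in Non-injured cords. Its log2 fold change over Non-injured was 0.83, 0.97 and 0.68 in the 3 injured groups (adjusted p = 0.00653, 0.000714 and 0.00638 by edgeR). Tsc22d3 (GILZ), which glucocorticoids induce as well, fell in SCI to 116 ± 5.23 CPM, against 208 ± 39.5 CPM in Non-injured cords (log2 fold change -0.84, adjusted p = 0.0170).

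Lists for other inputs to the clock were followed as well. Of all genes 0.0363% were called over SCI in SCI+syngeneic MSC and 0.188% in SCI+allogeneic MSC. Of 12 glucocorticoid response genes 0 were called for either transplanted group over SCI, with median log2 fold changes of 0.15 for SCI+syngeneic MSC and 0.37 for SCI+allogeneic MSC, against 0.00 over all genes in both. Over Non-injured cord Plin4, a lipid droplet protein, rose in all 3 injured groups. Its log2 fold change was 2.64 in SCI+syngeneic MSC, 2.08 in SCI+allogeneic MSC and 1.67 in SCI (adjusted p = 0.00779, 0.00855 and 0.0243 by edgeR). The metallothioneins Mt1 and Mt2, which bind metal ions, rose in SCI+allogeneic MSC by 1.22 and 1.59 (adjusted p = 0.0191 and 0.00679), and Mt2 also rose in SCI by 1.05 (adjusted p = 0.0431). The Mt1 libraries of SCI+allogeneic MSC and Non-injured overlapped, with replicate 1 of the first at 394 CPM and replicate 3 of the second at 406 CPM. Of 8 temperature response genes 0 were called over SCI, with medians of 0.13 for SCI+syngeneic MSC and -0.13 for SCI+allogeneic MSC. Over Non-injured cord the cold-induced Rbm3 rose by 1.07 (adjusted p = 0.0196) and the chaperone Hsph1 fell by 0.65 (adjusted p = 0.0155) in SCI+allogeneic MSC. Of the 12 libraries, SCI+allogeneic MSC replicate 3 had the highest Mt1, Mt2 and Rbm3 and the lowest Hsph1. Rbm3 stood at 162 CPM there, against 66.8 and 74.4 CPM in the other replicates of that group. Plin4 was highest in SCI+syngeneic MSC replicate 3. Of these 8 calls, Plin4 and Mt2 in SCI+allogeneic MSC were kept with each of the 12 libraries left out, and the others were lost without 1 library or another, with adjusted p of at most 0.133. Over all genes 5.34% were called either way for SCI+syngeneic MSC over Non-injured cord, 24.9% for SCI+allogeneic MSC and 25.8% for SCI.

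A list of 12 immediate early genes was followed, which neurons and other cells switch on within minutes of a stimulus. Of these 9 rose in SCI over Non-injured cord, where 16.6% of all genes were called higher. Among the 9, Egr2 is also on the Schwann cell list. Atf3, a stress and nerve injury factor, stood at 27.4 ± 4.10 CPM in SCI, against 1.46 ± 1.18 CPM in Non-injured cords (SD, n = 3 each; log2 fold change 4.23, adjusted p = 0.000404 by edgeR). Fos was the 1 gene of this list called over SCI: it stood at 33.3 ± 8.98 CPM in SCI+syngeneic MSC and 45.8 ± 11.9 CPM in SCI+allogeneic MSC, against 122 ± 22.7 CPM in SCI cords (SD, n = 3 each). The log2 fold change of Fos was -1.88 (SE 0.23, adjusted p = 0.0152 by edgeR) with syngeneic and -1.42 (SE 0.23, adjusted p = 0.0301) with allogeneic cells. Over all genes 0.0363% were called in the first of these comparisons and 0.188% in the second. The call of Fos was lost in 5 of the 12 fits with 1 library left out for the syngeneic comparison and in 8 of the 12 for the allogeneic one, each of the 3 SCI libraries among them, with adjusted p of at most 0.140 and 0.204. The median log2 fold change of the list was -1.10 with syngeneic and -0.53 with allogeneic cells, against 0.00 over all genes in both.

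Genes with a pattern like that of Dbp or Arntl were ranked by the root mean square distance between centred log2 CPM over the 12 libraries, among 16526 genes. Nearest to Dbp was Ciart, with Per2 at rank 3, Per3 at rank 7, Nr1d2 at rank 11 and Nr1d1 at rank 63; Cry1 and Per1 were at ranks 882 and 1832. Arntl stood at rank 15444 and Npas2 at rank 15686, near the far end. The 5 nearest genes outside the clock set were Mir196a-1, Dct, Hsd17b14, Cstad and Gm4366, which all had group means under 2 CPM. To Arntl, Npas2 was at rank 6, and the 5 nearest others were Fbn2, Egr1, Cyyr1, Col6a6 and Gm42913. Fbn2, a fibrillin of the extracellular matrix, had 5.32 ± 1.41 CPM in SCI+syngeneic MSC, 5.15 ± 0.982 CPM in SCI+allogeneic MSC, 10.4 ± 1.60 CPM in SCI and 7.59 ± 1.35 CPM in Non-injured cords. Egr1, an immediate early gene, had 46.5 ± 12.03 CPM, 57.9 ± 4.0 CPM, 106 ± 7.67 CPM and 64.9 ± 15.04 CPM in the same order. The distances were 0.241 for Fbn2 and 0.261 for Egr1, and all points share the same 12 libraries.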

How the data were processed

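RNA of 12 spinal cord samples was purified on columns with DNase, and poly(A) libraries were made with the TruSeq stranded mRNA kit, per the labels' protocols. The authors deposited raw counts per Ensembl gene for 46078 genes, of which 45143 have a symbol. The submitters' processing notes list featureCounts 1.5.1, STAR 2.5.1, StringTie 1.3.3, Trim Galore 0.4.1, FastQC 0.11.5 and Picard, on GRCm38, without their roles. For the annotation release, the strand setting and multi-mapping reads, nothing is given in the sources used here.

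Groups follow the labels. edgeR 4.0.16 (R 4.3.3) kept 16527 genes with filterByExpr (minimum count 10, minimum total 15), scaled by TMM and fitted robust quasi-likelihood models to all 12 libraries with 1 mean per group (8 residual degrees of freedom) for 6 comparisons. Benjamini-Hochberg adjustment ran over all genes tested, with a threshold of 0.05. log2 CPM used a prior count of 2. The script was tested on simulated data. Alternatives were RLE size factors, library totals alone, no filter, DESeq2 1.42.0, limma-voom 3.58.1 and each library left out in turn. The 10 genes and all lists were chosen with earlier results of these data known. Named were the 10 genes, other core clock genes, called genes of the other lists (at most 4 per list and comparison between a transplanted group and another) and the 5 genes nearest to Dbp and to Arntl. Not every gene so picked is printed, and called genes of SCI over Non-injured were chosen after their values were seen. Overlaps between genes were read from GENCODE M21, and promoter windows from RefSeq.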

Additional observations from a re-analysis of the deposited data

How the results depend on the processing

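No paired analysis was possible because the sample titles carry no replicate numbers shared between groups. Of 1060 values of the 10 genes under other settings, 1057 moved by less than 1 SD between replicates, and no called difference changed sign. For the fits with 1 library left out, which are most of these values, the first count is no test of stability. Dropping 1 of 3 libraries can hardly move a difference by 1 SD. Counts of calls moved more. For SCI+syngeneic MSC over SCI, genes called were 18 with no filter, 121 by DESeq2 and 10 by limma-voom, against 6. Of the 10 clock genes 4 were called with RLE size factors, 5 with no filter, 7 by DESeq2 and 4 by limma-voom, against 2, and of the 20 other core clock genes 1 by DESeq2, against 0. For SCI+allogeneic MSC over SCI, 50 genes were called with no filter and 71 by DESeq2, against 31, and 7 of the 10 clock genes by DESeq2, against 3. DESeq2 called 358 genes for syngeneic over allogeneic cells, against 101, and 1409 for SCI+syngeneic MSC over Non-injured, against 883. With no filter 2 of the 20 other core clock genes were called for SCI+allogeneic MSC over Non-injured, against 4; for SCI over Non-injured they were 3, against 4 (Nono was lost), and 5 of the 10 clock genes, against 7. The cause was not tested.

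With 1 library left out, genes called ranged from 0 to 866 for SCI+syngeneic MSC over SCI, 0 to 34 for SCI+allogeneic MSC over SCI, 24 to 1178 for syngeneic over allogeneic, 358 to 1752 for SCI+syngeneic MSC over Non-injured, 2613 to 4669 for SCI+allogeneic MSC over Non-injured and 2336 to 4515 for SCI over Non-injured. The highest counts for SCI+syngeneic MSC over SCI and over SCI+allogeneic MSC came without SCI+syngeneic MSC replicate 3. Clock genes called of 10 ranged from 0 to 7 for SCI+syngeneic MSC over SCI, 0 to 3 for SCI+allogeneic MSC over SCI, 3 to 5 for SCI+allogeneic MSC over Non-injured and 4 to 7 for SCI over Non-injured. Other core clock genes of 20 ranged from 0 to 2 for SCI+syngeneic MSC over SCI, 0 to 1 for SCI+syngeneic MSC over Non-injured, 1 to 5 for SCI+allogeneic MSC over Non-injured and 0 to 6 for SCI over Non-injured. Of 697 values of called genes in the other lists 73 missed the threshold, and none changed sign; these were added after seeing the data. The smallest count behind a level of the 10 genes was 63, and 3 libraries a group limit every test.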
